A study of Mus musculus with 11 samples.

Results

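The wells described here are those in which a single sorted mouse liver cell gave at least 100 reads of Saa3 and at least 100 reads of Lcn2. They are called Saa3+Lcn2+ wells, and they were selected on the measured reads of these 2 genes. The rule was applied to every non-control well with at least 50000 reads on genes, which left 2265 of 2292 wells on 6 plates, and it chose 112 wells. The cells came from adult male C57BL/6 mice that carried the Pdgfrb-BAC-eGFP reporter, in which eGFP is driven by the regulatory sequence of Pdgfrb, a receptor of mesenchymal cells. GFP+ CD45- CD102- cells were sorted, so leucocytes and endothelial cells were gated out, and 1 cell was placed in each well for Smart-seq2, which sequences full-length transcripts without molecular identifiers. All mice in all groups carried the reporter. Uninjured mice were compared with mice given carbon tetrachloride (CCl4), a hepatocyte toxin, for 6 weeks and with mice killed 14 days after bile duct ligation (BDL), which dams bile in the liver. Plates 1, 2 and 4 held BDL and uninjured wells, plates 3 and 5 held CCl4 and uninjured wells, and plate 6 held uninjured wells only. All wells of plates 1 to 5 came from a digestion aimed at periportal fibroblasts (PF), whereas plate 6 mixed this digestion with one aimed at hepatic stellate cells (HSC).

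A portion here means all wells that a given mouse contributed to a given plate, and there were 17 portions. Whether the same animal supplied several plates is not given in the labels, so p-values over portions measure the spread between portions, which may share animals. A portion had between 21905790 and 100384182 gene reads in total. Saa3+Lcn2+ wells had between 88074 and 567025 gene reads (median 430865), and the 2153 remaining wells had a median of 436157.

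Saa3 encodes a serum amyloid A that is made outside the hepatocyte during inflammation. Lcn2 encodes lipocalin 2, which withholds iron from bacteria by binding their siderophores. Hp encodes haptoglobin, an acute-phase protein that binds free hemoglobin, and Cxcl5 encodes a chemokine that attracts neutrophils. Genes of this kind are switched on in many cell types by cytokines acting through NF-kB, C/EBP and STAT3 transcription factors. The liver mesenchyme holds HSC, which store vitamin A, fibroblasts (FB) around the portal tract, and vascular smooth muscle cells (VSMC) of vessel walls, and the liver surface is covered by the mesothelium.

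The sequences upstream of the 2 genes that define the wells are shown because C/EBP factors act on genes of this kind. They are read from RefSeq promoters on GRCm38.p6, 5′ to 3′ on the minus strand on which both genes lie, and stop before bases annotated as UTR. Capitals mark the match to the C/EBP letters TTGCNNAA, searched on both strands of the 250 bases before the start.
Saa3: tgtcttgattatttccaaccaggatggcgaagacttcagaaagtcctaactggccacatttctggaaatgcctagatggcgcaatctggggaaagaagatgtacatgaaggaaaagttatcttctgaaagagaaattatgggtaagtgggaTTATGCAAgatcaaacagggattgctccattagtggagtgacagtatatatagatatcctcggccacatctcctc
Lcn2: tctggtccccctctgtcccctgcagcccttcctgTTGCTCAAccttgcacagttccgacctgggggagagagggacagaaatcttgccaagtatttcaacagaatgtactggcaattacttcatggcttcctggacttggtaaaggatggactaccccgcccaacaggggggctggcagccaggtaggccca
The Saa3 stretch is chr7:46715701-46715926 (226 bases), with the match on the opposite strand at bases -99 to -92 from the RefSeq start. The Lcn2 stretch is chr2:32387798-32387989 (192 bases), with the match on the gene's strand at -216 to -209. It lies inside the GENCODE span of the Lcn2 gene, chr2:32384633-32388252, which starts further upstream than the RefSeq transcript. A C/EBP match stood in 9.56% of 32851 promoters searched over the same length, so it is a common feature. An NF-kB motif, present in 7.25% of promoters, had no match in either window.

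Saa3+Lcn2+ wells were found almost entirely after CCl4. On plate 3 they made up 28 of 127 wells of CCl4 mouse 1 (22.0%, exact 95% Clopper-Pearson interval 15.2 to 30.3%) and 7 of 127 wells of CCl4 mouse 2 (5.51%, 2.24 to 11.0%). On plate 5 they made up 50 of 174 wells of CCl4 mouse 1 (28.7%, 22.1 to 36.1%) and 25 of 79 wells of CCl4 mouse 2 (31.6%, 21.6 to 43.1%). All 4 CCl4 portions therefore held such wells, with plate 3 CCl4 mouse 2 well below the other 3. Of 749 BDL wells only 2 met the rule, 1 of 80 from BDL mouse 2 on plate 1 and 1 of 249 from BDL mouse 1 on plate 4. No uninjured well met it, and in 1009 wells of 8 portions the same exact interval reaches up to 0.365%. These intervals and limits cover counting error only.

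Over the portions of plates 1 to 5, the mean share was 22.0% ± 11.7 (SD, n = 4) after CCl4, 0.330% ± 0.543 (SD, n = 5) after BDL and 0 in uninjured mice (n = 5). CCl4 was above uninjured by 22.0 percentage points in an exact two-sided permutation test over portions (p = 0.0159, Benjamini-Hochberg adjusted over 3 pairs 0.0238), and above BDL by 21.7 percentage points (exact permutation p = 0.0159, adjusted 0.0238). BDL and uninjured did not pass the test (exact permutation p = 0.444). The first 2 p-values are the smallest these numbers of portions allow. Within plates, the mean CCl4 share was 13.8% on plate 3 and 30.2% on plate 5 against 0 in the uninjured portion of each, and shuffling only within these plates gave an exact p of 0.111, the smallest of 9 arrangements. CCl4 and BDL mice were never on the same plate, so injury and plate cannot be told apart in that pair. Leaving out any CCl4 portion raised the exact permutation p to 0.0357 and the adjusted p to 0.0536. This p is the smallest that the portions left allow, so the rise reflects their number. Differences from uninjured were then between 18.8 and 27.5 percentage points.

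**Figure D1:**
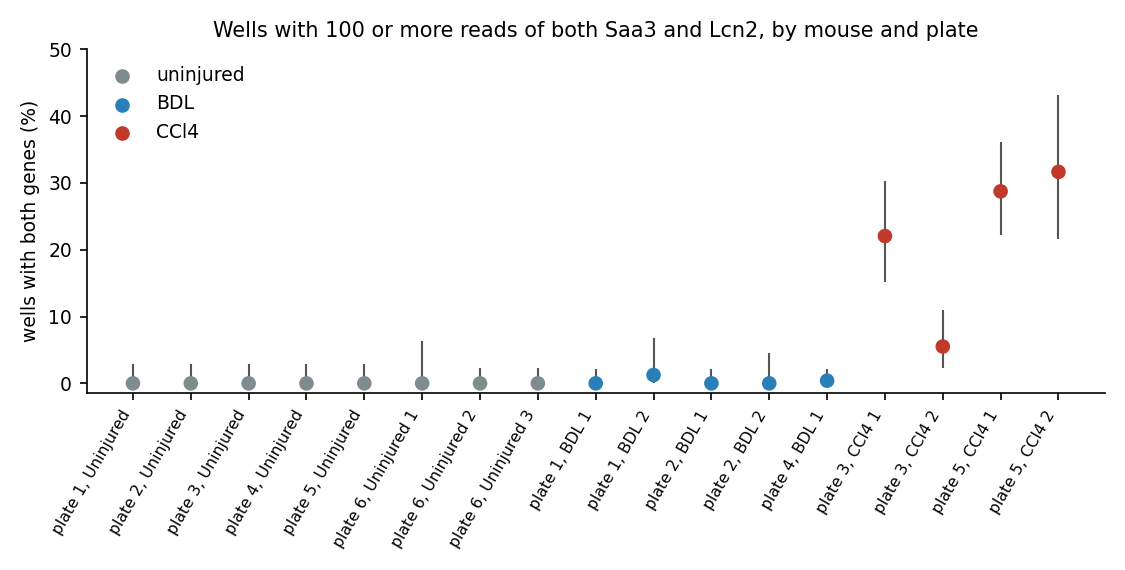
Share of wells (percent, vertical axis) with 100 or more reads of both Saa3 and Lcn2 in each of the 17 portions (horizontal axis), with exact 95% Clopper-Pearson intervals as bars and colors for condition. The 4 CCl4 portions lie between 5.51 and 31.6%, all others between 0 and 1.25%.

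Levels are given as RPM, the reads of a gene scaled to 1000000 gene reads in the well. Saa3 had a median of 18727 RPM, with a range of 222 to 67730, and Lcn2 had a median of 1657 RPM (202 to 19478). These values chose the wells and are given as a description only. By portion, the Saa3 median was 34024 RPM in plate 3 CCl4 mouse 1 (n = 28 wells), 21607 in plate 3 CCl4 mouse 2 (n = 7), 10217 in plate 5 CCl4 mouse 1 (n = 50) and 20058 in plate 5 CCl4 mouse 2 (n = 25). The Lcn2 medians in the same order were 2961, 724, 1223 and 2824 RPM. The 2 BDL wells were at the low end for Saa3, with 1130 RPM (347 reads) on plate 1 and 915 RPM (298 reads) on plate 4, while their Lcn2 levels of 1124 and 1299 RPM were near the median. Across the 112 wells Saa3 and Lcn2 levels had a Spearman rank correlation of 0.481, a description over wells that share libraries and mice.

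The 2 genes overlapped but were not bound to each other. Saa3 reached 100 reads in 146 wells, of which 76.7% also had Lcn2, and Lcn2 reached it in 158 wells, of which 70.9% also had Saa3. The 34 wells with Saa3 alone came mainly from CCl4 mice (30 wells), and 8 of them had no Lcn2 read. The 46 wells with Lcn2 alone came mainly from BDL mice (30 wells, against 12 from CCl4 and 4 from uninjured mice), and 33 of them had no Saa3 read. Just inside the threshold, the lowest wells had 103, 104 and 104 Lcn2 reads beside 1368, 997 and 2231 Saa3 reads. Just outside it, 2 wells had 93 Lcn2 reads beside 1040 and 2927 Saa3 reads, and 1 had 90 Saa3 and 100 Lcn2 reads.

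**Figure D2:**
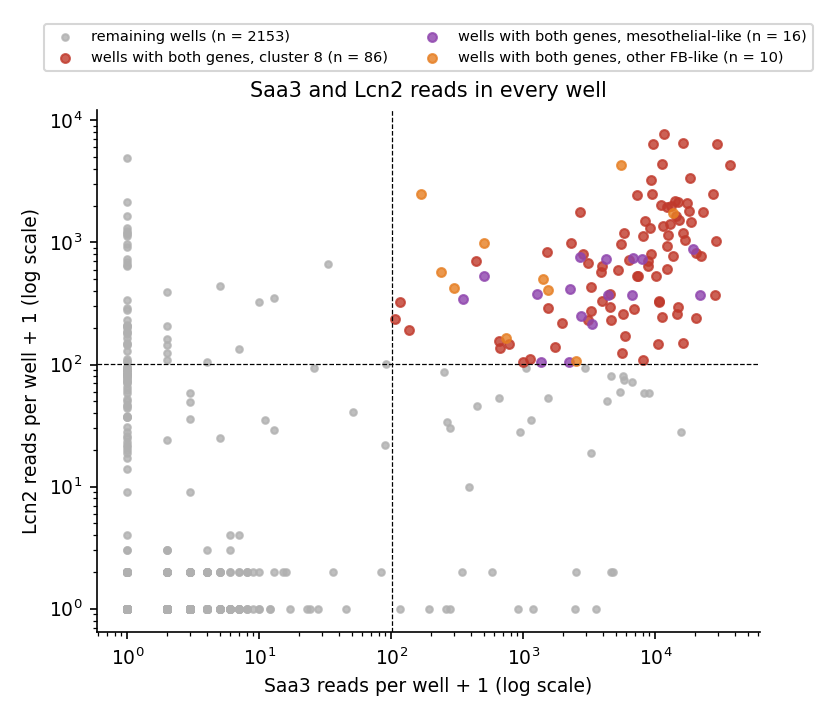
Lcn2 reads (vertical axis, log scale, 1 added) against Saa3 reads (horizontal axis, log scale, 1 added) in each of the 2265 wells, with dashed lines at the threshold of 100 reads and colors for the cluster of the Saa3+Lcn2+ wells. The 112 wells above both lines spread over a wide range of Saa3 reads, and wells with Lcn2 but no Saa3 line up on the left edge.

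Small numbers of Saa3 reads were also present in many other wells of plates 3 and 5. Among VSMC-like wells, which have a smooth muscle program, Saa3 was above 0 in 82.4% and 64.5% of wells of the 2 CCl4 mice on plate 3 and in 52.5% of wells of the uninjured mouse beside them. On plate 5 it was above 0 in 74.6% and 80.8% of wells of the CCl4 mice and in 40.6% of uninjured wells. The median was 0 to 3 reads in each of these groups. On plates 1, 2 and 6 no VSMC-like well had a Saa3 read, and on plate 4 at most 1.33% did. Low Saa3 counts therefore moved with the plate as well as the injury, and their source was not tested.

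Haptoglobin and Cxcl5, which the rule did not use, were present in most of the CCl4 wells but in neither BDL well. Hp was above 0 in 104 of 112 wells with a median of 1390 RPM. Its median was 2260 RPM in plate 3 CCl4 mouse 1, 1255 in plate 3 CCl4 mouse 2, 874 in plate 5 CCl4 mouse 1 and 1917 in plate 5 CCl4 mouse 2. In remaining FB-like wells of the same portions it was 0, 0, 218 and 0 RPM, so plate 5 CCl4 mouse 1 stood closest to its background. Cxcl5 was above 0 in 74 of 112 wells with a median of 131 RPM, and its portion medians of 678, 2166, 68.0 and 0 RPM differed far more than those of Hp. It was above 0 in 92.9% of Saa3+Lcn2+ wells of plate 3 CCl4 mouse 1 but in 48.0% of those of plate 5 CCl4 mouse 2.

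Most Saa3+Lcn2+ wells belonged to a single cluster with fibroblast features. Wells were clustered without Saa3, Lcn2 and the inflammatory gene lists, and 86 of the 112 wells fell into cluster 8, 16 into cluster 11, 9 into cluster 1 and 1 into cluster 6. None fell into a VSMC-like cluster, although VSMC-like wells were present in every CCl4 portion. The HSC-like cluster held 318 uninjured wells, all of plate 6, and no CCl4 or BDL well, so the plates cannot show whether injured HSC carry the pair. Cluster 8 held 142 wells, of which 135 came from CCl4 mice, 7 from BDL mice and 0 from uninjured mice. Its leading genes by fold were Chl1, Serpinb2, Ugt1a7c, Calca, H2-Ab1, Cd74, Hdc, Fam110c, Gas7 and Ncam1, which include H2-Ab1, an MHC class II chain, and Cd74, the invariant chain that pairs with class II, and none of the 8 FB markers. Cluster 1, led by Scara5, Has1 and Sfrp2, was FB-like, and cluster 11, led by Msln, Upk3b and Upk1b, was mesothelial-like.

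How cluster 8 is named depended on the scoring. With markers counted only where they reached 10 reads in at least 10% of the wells of some cluster, a rule set after the clusters had been seen, it was FB-like (FB score 0.492, mesothelial score 0.243), which put 96 of the 112 wells in the FB-like class and 16 in the mesothelial-like class. With every fixed marker scored, as was done at first, its best score was for macrophages (0.651, on 1 detected marker) and it stayed unnamed, which left 86 wells unnamed, 16 mesothelial-like and 10 FB-like. Counting markers well by well instead gave 101 FB-like wells and 11 unnamed, but this count had only FB, HSC and VSMC classes and so could not name a mesothelial-like well. Clustering at resolution 0.4 instead of 0.8 gave 95 FB-like wells and 17 unnamed. No cluster was then mesothelial-like, and 16 of the unnamed wells lay in a cluster of 47 wells led by Msln and Krt18. The wells themselves showed FB markers: 103 of 112 had at least 3 of the 8 FB markers at 10 or more reads, and 0 had 3 of the 7 HSC markers. Over all plates, 35.9% of remaining wells and 95.2% of remaining FB-like wells had at least 3 FB markers. At least 3 of the 6 VSMC markers were found in 18 of the 112 wells, against 49 of 131 remaining FB-like wells of the CCl4 portions. The 18 wells included 5 of 28 and 5 of 7 from plate 3 CCl4 mice 1 and 2. On plate 5 they were 8 of 50 and 0 of 25.

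Single markers of cluster 8 showed FB genes and some VSMC genes. Of its 86 Saa3+Lcn2+ wells, 98.8% had 10 or more reads of Pdgfrb, 96.5% of Pdgfra and 86.0% of Lum, which encodes the matrix proteoglycan lumican. Fbln2, the FB marker that encodes fibulin 2, reached 10 reads in 100% of them and Cd34 in 93.0%, whereas Clec3b reached it in 25.6% and Mfap4 in 27.9%. The VSMC markers Acta2 and Tpm2 each reached 10 reads in 69.8% of these 86 wells. In remaining FB-like wells of the CCl4 portions they did so in 69.5% and 64.1%. The other VSMC markers were rarer in the 86 wells, at 15.1% for Myh11, 14.0% for Tagln and 1.16% for both Pln and Cnn1. The HSC markers Reln, Pth1r and Vipr1 reached 10 reads in none of the 112 wells, and Lrat, the enzyme that makes retinyl esters, in 0.893%. The HSC marker Ecm1 was at 10 or more reads in 96.4% of wells and in 96.2% of remaining FB-like wells, so it did not separate the types here.

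In the 4 CCl4 portions, each with at least 5 wells in either arm, the FB-like share was 92.9%, 100%, 78.0% and 92.0% of Saa3+Lcn2+ wells against 39.4%, 16.7%, 38.7% and 44.4% of remaining wells, a mean difference of 55.9 percentage points. The VSMC-like share was 0 against 47.6 to 77.5%. Both differences had the same sign in 4 of 4 portions, but an exact two-sided sign-flip permutation over 4 portions cannot go below p = 0.125, the value both reached. With every fixed marker scored, the FB-like difference was -17.0 percentage points, since cluster 8 then had no name.

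Some of the wells had mesothelial markers and lacked Pdgfrb, which the label mesenchymal does not describe. The 16 Saa3+Lcn2+ wells of cluster 11 had 10 or more reads of all 6 mesothelial markers (Msln, Upk3b, Upk1b, Lrrn4, Wt1 and Gpm6a), and of Krt7 and Krt19, keratins of epithelia. Of mesenchymal and FB genes, Pdgfrb, Lum, Dpt and Mfap4 reached 10 reads in none of them, whereas Dcn and Vim did so in 100%, Cd34 in 93.8%, Gpx3 in 81.2% and Clec3b in 50%. Although the cells were sorted as GFP+, 15 of these 16 wells had no eGFP read, as did 24 of all 28 wells of cluster 11, so the lack of eGFP was not particular to the Saa3+Lcn2+ wells. Of 131 remaining FB-like wells of the CCl4 portions 1 had none. By portion, 2 of the 16 wells were from plate 3 CCl4 mouse 1, 11 from plate 5 CCl4 mouse 1, 2 from plate 5 CCl4 mouse 2 and 1 from plate 1 BDL mouse 2.

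Mesothelial markers were not confined to cluster 11. In all, 36 of the 112 wells had at least 3 of the 6 markers, and 17 had all 6, of which 16 had no eGFP read. The median eGFP level was 306 RPM in the 5 wells with no mesothelial marker, 263 in the 36 wells with 1, 180 in the 35 wells with 2, 157 in the 11 wells with 3, 110 in the 6 wells with 4, 97.4 in the 2 wells with 5 and 0 in the 17 wells with 6. The eGFP level was therefore lower at each step of the marker count, while the median number of FB markers was 5 with none, 6 with 1 and 3 with all 6. In cluster 8, Wt1, a transcription factor of mesothelium and of some mesenchyme, reached 10 reads in 94.2% of Saa3+Lcn2+ wells and Gpm6a in 62.8%, but Msln in only 5.81% and Upk1b in 4.65%.

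Per portion, wells with at least 3 mesothelial markers made up 35.7%, 28.6%, 32.0% and 28.0% of Saa3+Lcn2+ wells against 0, 2.50%, 11.3% and 1.85% of remaining wells. The mean difference was 27.2 percentage points, with the same sign in 4 of 4 portions (exact sign-flip permutation p = 0.125, the smallest possible). Among FB-like wells only, the shares were 30.8%, 28.6%, 12.8% and 21.7% against 0, 15%, 20.8% and 4.17%, so plate 5 CCl4 mouse 1 went the other way. The mean difference there was 13.5 percentage points (exact sign-flip permutation p = 0.25), an alternative chosen after seeing the data.

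**Figure D3:**
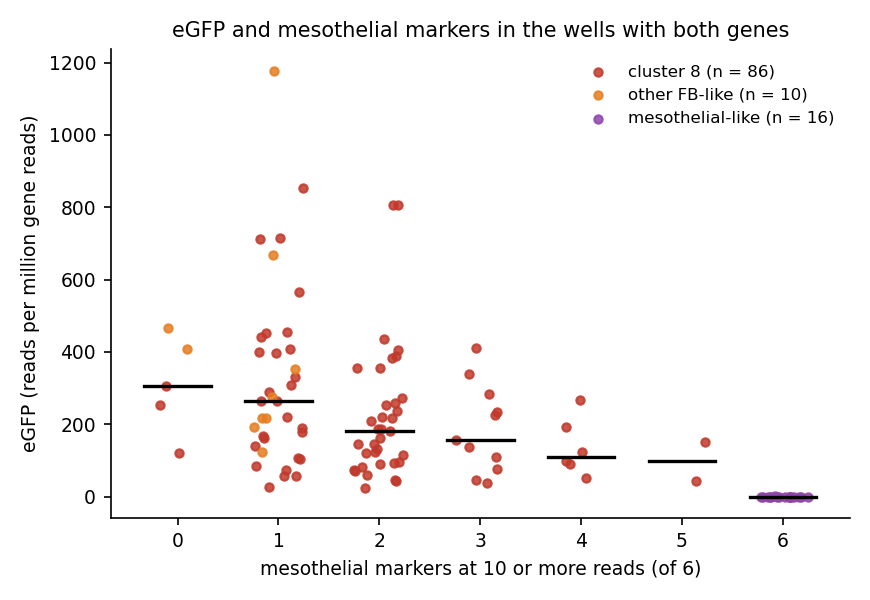
eGFP level (RPM, vertical axis) of each Saa3+Lcn2+ well by the number of its 6 mesothelial markers at 10 or more reads (horizontal axis), with black bars at medians and colors for clusters. The median goes from 306 RPM with no marker to 0 with 6.

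Apart from the FB, VSMC and mesothelial markers given above, wells with several markers of another cell type were rare among the 112. No well had at least 3 of the neutrophil, leucocyte, macrophage, endothelial, hepatocyte or Schwann cell markers, and 1 had 3 cholangiocyte markers. Such wells were as rare among the 397 remaining wells of the CCl4 portions. There, 1 well (0.252%) had at least 3 hepatocyte markers, 2 (0.504%) had 3 cholangiocyte markers, and 0 had 3 of the other lists. These counts therefore do not set the 112 wells apart. Single cholangiocyte markers were more frequent, since only 72 of the 112 wells had none, against 2010 of 2153 remaining wells of all plates. The defining leucocyte gene Ptprc (CD45) and the neutrophil genes S100a8, Ngp, Ltf, Elane and Retnlg reached 10 reads in none. The neutrophil genes S100a9 and Mpo did so in 0.893% each and Camp in 1.79%, and the leucocyte genes Laptm5 and Lyz2 in 0.893% each. The summed level over the 112 wells was 1.93 RPM for the 8 neutrophil markers, 0.879 RPM for the 6 leucocyte markers, 0.593 RPM for the 6 hepatocyte markers and 38.2 RPM for the 6 macrophage markers. Of the macrophage markers, Csf1r reached 10 reads in 19.6% of wells, Cd68 in 7.14% and Emr1 in 1.79%, but C1qa, C1qb and Clec4f in none. The cholangiocyte list summed to 523 RPM, against 56.7 RPM in remaining wells and 19.2 RPM in remaining FB-like wells of all plates. Its members Krt19 and Krt7 reached 10 reads in every Saa3+Lcn2+ well of cluster 11. The macrophage sum was 15.7 RPM in remaining wells and 28.5 RPM in remaining FB-like wells of the CCl4 portions, against 38.5 RPM in Saa3+Lcn2+ wells of the same portions, and its part in the results was not tested. Of the 46 wells with Lcn2 alone, 19 were in cluster 1 and 14 in cluster 12, which was led by Spp1, Alb and Krt18 and held no Saa3+Lcn2+ well.

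RNA content and gene number were compared between FB-like Saa3+Lcn2+ wells and remaining FB-like wells of the same portion. Gene reads per spike-in read, a measure of RNA content, had medians of 1376, 1402, 920 and 1229 in Saa3+Lcn2+ wells against 872, 496, 766 and 588 in remaining wells. Genes detected after thinning each well to 50000 reads had medians of 4530.5, 4413, 3867 and 3685 against 3809, 3348, 3632.5 and 3289.5. eGFP had medians of 247, 187, 145 and 180 RPM against 421, 305, 222 and 183 RPM, lowest against its pair on plate 3. The mean differences were 551 reads per spike-in read, 604 genes and -93.0 RPM, each with the same sign in 4 of 4 portions and an exact sign-flip permutation p of 0.125, the smallest possible. Median reads per well were 460120, 534785, 418047 and 421729 against 507895, 492430, 410026 and 444949, higher in 2 portions and lower in 2. The arms also differed in cluster, since cluster 8 supplied 86 of the 95 Saa3+Lcn2+ wells and 49 of the 131 remaining wells. Over all 142 wells of cluster 8 the median eGFP was 179.5 RPM, against 184 RPM in its Saa3+Lcn2+ wells, and the median number of genes at 50000 reads was 4012, against 3324, 3097 and 2325 in FB-like clusters 1, 5 and 6.

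To ask which other genes went with the pair, reads were summed per portion over FB-like wells in each arm, which set 95 Saa3+Lcn2+ wells (26, 7, 39 and 23) against 131 remaining wells (39, 20, 48 and 24). Saa3 and Lcn2 were left out. Of the Saa3+Lcn2+ wells 86 were of cluster 8 and 9 of cluster 1, whereas the remaining wells were of clusters 5 (50 wells), 8 (49), 1 (28) and 6 (4). The contrast therefore runs partly between clusters. In edgeR's quasi-likelihood test with the portion as a block, 22 of 11756 genes (0.187%) were lower in Saa3+Lcn2+ wells at a Benjamini-Hochberg adjusted p under 0.05 and 0 (0%) were higher. At an unadjusted p under 0.05, 579 genes were higher and 791 lower. DESeq2 on the same sums called 384 higher (3.27%) and 653 lower (5.55%), and edgeR without the block called 21 higher and 78 lower. Of all genes tested, 1157 (9.84%) were higher and 1614 (13.7%) lower in each of 4 portions, and the median log2 fold change was -0.03. Without plate 3 CCl4 mouse 1 or without plate 5 CCl4 mouse 2 no gene passed, and without plate 5 CCl4 mouse 1 there were 12 higher and 49 lower.

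The genes that fell included Eln and Col6a3, which encode structural proteins of the matrix. Eln, which encodes elastin, was at 74.0, 28.3, 68.2 and 45.0 RPM in Saa3+Lcn2+ wells of plate 3 CCl4 mice 1 and 2 and plate 5 CCl4 mice 1 and 2, against 717, 396, 489 and 528 RPM in remaining FB-like wells. The log2 fold change was -3.32 (SE 0.25, edgeR adjusted p = 0.0120). The groups did not overlap, a description that was not counted over all genes. Col6a3, a chain of collagen VI, was at 391, 234, 255 and 240 RPM against 1479, 1127, 650 and 782 RPM (log2 fold change -1.77, SE 0.21, edgeR adjusted p = 0.0461). These were the 2 called members of a list of 22 matrix and fibrogenic genes, of which 20 did not pass. The list went both ways: DESeq2 called 3 higher and 5 lower, and the median log2 fold change was -0.26. The 3 higher by DESeq2 were Timp1, Fn1, which encodes fibronectin (3235 against 957.5 RPM), and Lox, which cross-links collagen and elastin (553 against 288 RPM). Pi16, a marker of adventitial fibroblasts, was at 22.5, 2.75, 19.1 and 13.0 RPM against 173, 41.3, 109 and 81.6 RPM (log2 fold change -2.91, SE 0.34, edgeR adjusted p = 0.0461), and was the only gene called by edgeR among the 7 tested adventitial fibroblast genes. DESeq2 called 1 of the 7 higher and 2 lower, and the higher gene was Cd55, a complement regulator (450.4 against 220.2 RPM, higher in 4 of 4 portions).

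The 10 largest called changes were in genes that were nearly silent in Saa3+Lcn2+ wells. Acsbg1, an acyl-CoA synthetase, had 1 read in the 95 Saa3+Lcn2+ wells and 5577 reads in the 131 remaining wells. Its levels in remaining wells were 100, 228, 27.5 and 99.1 RPM. Cyp2e1, a cytochrome P450 that is on the hepatocyte list and converts CCl4 to its toxic radical in hepatocytes, had 13 reads against 18112. The levels of Cyp2e1 in remaining wells ranged from 61.3 RPM in plate 5 CCl4 mouse 1 to 965 RPM in plate 5 CCl4 mouse 2. The other hepatocyte markers were at or near 0 in these FB-like wells (Alb reached 10 reads in 1.53% of remaining wells and Cyp2e1 in 25.2%). Angpt4 (2 reads against 5175), Frem1 (1 against 2295), Adra2b (1 against 2352), Shisa3 (2 against 2413), Adcy2 (1 against 1516), Fam198a (3 against 2808), Epha3 (3 against 3366) and 9330159F19Rik (3 against 2369) completed the 10. At so few reads no fold is given. Cluster 8 supplied 86 of the 95 Saa3+Lcn2+ wells and 49 of the 131 remaining wells. Whether the near silence of these 10 genes goes with the pair or with the cluster was not tested. Within cluster 8, 0 hepatocyte markers passed the filter on low counts, so Cyp2e1 was not compared there.

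The other 9 called genes fell outside the naming rule and are named because few genes passed. Igfbp3, which encodes a binding protein of insulin-like growth factors, was at 22.2, 33.8, 66.2 and 31.5 RPM against 652, 2000, 460 and 853 RPM (log2 fold change -4.56, SE 0.54, edgeR adjusted p = 0.0461). Igfbp3 is also a leading gene of cluster 5, which supplied 50 remaining wells and no Saa3+Lcn2+ well. Crispld2, a secreted glycoprotein, was at 51.0, 77.4, 44.2 and 164 RPM against 699, 607, 340 and 814 RPM (log2 fold change -2.95, SE 0.28, edgeR adjusted p = 0.0243). Matn2, a matrix adaptor protein, Prnp, the prion protein, and Vgll3, a cofactor of TEAD factors, had log2 fold changes of -2.20, -1.84 and -2.85. Col8a1, a collagen of vessel walls, had 39 reads against 6251, the integrin subunit Itga8 16 against 4745, Egflam 4 against 3633 and Gm4956 4 against 3408.

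**Figure D4:**
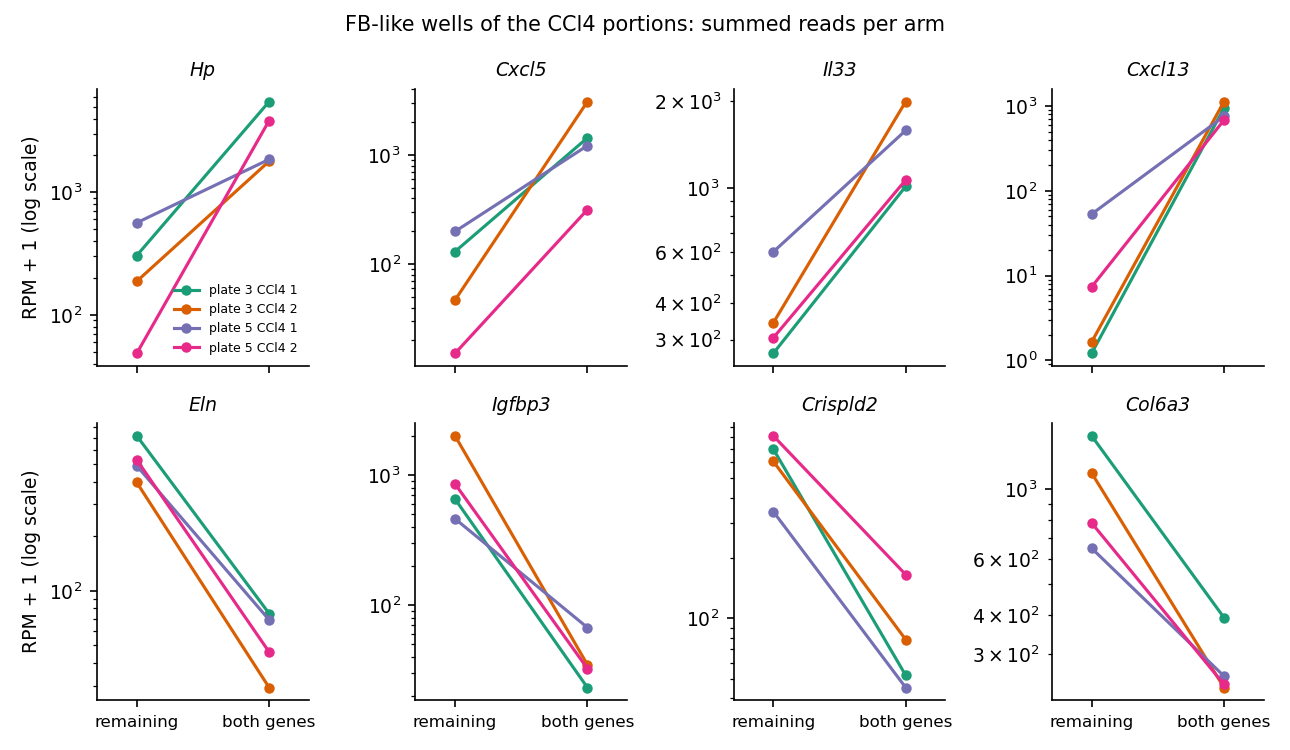
Summed level (RPM + 1, log scales that differ between panels) of 8 genes in FB-like wells of the 4 CCl4 portions, with remaining wells on the left, Saa3+Lcn2+ wells on the right and a line for each portion. Hp, Cxcl5, Il33 and Cxcl13 slope upward and Eln, Igfbp3, Crispld2 and Col6a3 downward in all 4 portions, of which only the latter 4 passed the edgeR test.

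Of the inflammatory gene lists, no member passed the edgeR test, although several had higher levels in Saa3+Lcn2+ wells in 4 of 4 portions. Il33, an alarmin, came closest, at 1014, 1990.04, 1582 and 1067 RPM against 268, 342, 601 and 303 RPM (log2 fold change 1.96, SE 0.24, edgeR adjusted p = 0.0538). The arms did not overlap, and the lowest value with both genes was above the highest without. How many of all genes tested did the same was not counted, so this is a description only. Of all genes tested, 9.84% were higher in each of 4 portions. Cxcl5 had a log2 fold change of 4.16 (SE 0.61, edgeR adjusted p = 0.0772) and Hp one of 3.89 (SE 0.75, edgeR adjusted p = 0.117), each higher in 4 of 4 portions. Cxcl13, a chemokine for B cells, was at 946, 1131, 757 and 684 RPM against 0.213, 0.647, 52.2 and 6.36 RPM (log2 fold change 8.11, SE 1.63, edgeR adjusted p = 0.129). Its remaining wells were near 0 on plate 3 and higher on plate 5, so the fold rests on very low levels. Values given as 1 number for each arm are means over the 4 portions.

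By gene list, of the 8 CXC chemokines tested 0 were called by edgeR, 4 by DESeq2 as higher, 6 were higher in 4 of 4 portions and the median log2 fold change was 2.39. Cxcl12, which holds leucocytes near stromal cells and was the most abundant, had a mean of 7675 RPM against 3252 RPM, and Cxcl1, a neutrophil chemokine, 1436 against 666 RPM. Of 6 CC chemokines DESeq2 called 2 higher and 3 lower, and the monocyte chemokines Ccl2 (463 against 82.0 RPM) and Ccl7 (407 against 64.3 RPM) were higher in 4 of 4 portions. Of 13 acute-phase and antimicrobial genes other than the pair DESeq2 called 7 higher, 7 were higher in 4 of 4 portions and the median log2 fold change was 1.03. C3, the central complement component, was the most abundant of them at 18790 against 9502 RPM, and Steap4, a metalloreductase, was at 1816 against 836 RPM. Of 15 complement genes DESeq2 called 8 higher and 3 lower, with Serping1, the C1 inhibitor, at 7466 against 6609 RPM and Clu, clusterin, at 5219 against 2103 RPM, a direction that turned within cluster 8 (log2 fold change -0.34). Every list named in this paragraph had 0 genes past the edgeR threshold.

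Signaling lists also had no gene past the edgeR threshold. Of 19 NF-kB feedback and target genes edgeR called 0 and DESeq2 8 as higher, 10 were higher in 4 of 4 portions, and the median log2 fold change was 1.08. Nfkbia, the inhibitor of NF-kB that NF-kB itself induces, was at 1187 against 608 RPM, and the adhesion molecule Vcam1 at 748 against 283 RPM. Of 12 C/EBP and STAT3 genes edgeR called 0 and DESeq2 3 as higher, with a median of 0.29. The 3 were Cebpb, a C/EBP factor (408 against 201 RPM), Stat3 (503 against 307 RPM) and the kinase Jak2 (111 against 45.7 RPM), each higher in 4 of 4 portions. Junb was at 1880 against 1496 RPM, and Cebpd, another C/EBP factor, at 577 against 827 RPM and lower in 4 of 4 portions. Of 12 cytokines and growth factors edgeR called 0, and DESeq2 4 as higher and 2 as lower. Of 24 cytokine receptors edgeR called 0, and DESeq2 5 as higher and 2 as lower, and Osmr, the oncostatin M receptor, was at 484 against 243 RPM. Of 17 interferon-stimulated genes edgeR called 0, and DESeq2 6 as higher and 1 as lower, and Gbp2, a guanylate-binding protein, was at 389 against 180 RPM. Of 12 MHC class I genes edgeR called 0 and DESeq2 4 as higher, with B2m, the common light chain, at 5208 against 3368 RPM. Reads of H2 genes can be split between near-identical copies, so H2-K1 at 2237 against 1185 RPM is uncertain.

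Genes of iron handling and protease inhibition are given next, since Lcn2 acts on iron. Of 15 iron genes other than Lcn2 edgeR called 0, and DESeq2 6 as higher and 1 as lower, and the median log2 fold change was 0.69. Trf, transferrin, was at 5702 against 1602 RPM (edgeR adjusted p = 0.0846). Fth1, the ferritin heavy chain, was at 19685 against 7086 RPM, and its processed copies in the genome may share reads. Of 17 proteases and protease inhibitors edgeR called 0, and DESeq2 4 as higher and 4 as lower, with a median log2 fold change of -0.12. Timp1, an inhibitor of matrix metalloproteinases, was at 2643 against 328 RPM (edgeR adjusted p = 0.109). Immediate-early genes, which respond to tissue digestion, had a median log2 fold change of 0.28 over 9 genes, of which edgeR called 0 and DESeq2 1. For cell cycle genes 3 were tested and neither tool called any.

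Fibroblast identity genes were split. Fbln2 was at 1599 against 600 RPM and higher in 4 of 4 portions, while Gpx3, a secreted glutathione peroxidase, was at 2552 against 5708 RPM, Cd34 at 745 against 1140 RPM and Mfap4, a microfibril protein, at 300.4 against 2770 RPM, each lower in 4 of 4 portions. Of the 8 FB markers edgeR called 0, and DESeq2 1 as higher and 4 as lower. Of the 4 HSC markers tested edgeR called 0 and DESeq2 4 as lower, with a median log2 fold change of -3.42 that turned to 1.65 within cluster 8, where neither direction was called by edgeR. Of 9 mesenchymal genes edgeR called 0 and DESeq2 5 as lower, with Dcn, decorin, at 22438 against 25273 RPM, Lum at 2924 against 5339 RPM and Vim, vimentin, at 1762 against 3260 RPM. Of the 5 mesothelial markers tested edgeR called 0 and DESeq2 1 as higher, and 1 was higher in 4 of 4 portions. Upk1b was at 10.4 against 2.31 RPM, Upk3b at 20.8 against 4.89 RPM and Lrrn4 at 48.5 against 27.5 RPM. Wt1 was at 377 against 185 RPM and Gpm6a at 158 against 76.1 RPM, and their part in the result was not tested. With FB-like wells limited to those with at most 1 mesothelial marker, edgeR called 1 gene lower and 0 higher. Set against all remaining wells of the same portion, whatever their class, edgeR called 423 of 12843 genes higher (3.29%) and 687 lower (5.35%), a contrast that also runs between FB-like and VSMC-like wells.

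Within cluster 8 alone, a contrast chosen after seeing the data, no gene passed the edgeR test. Of the cluster's wells, 23 against 9, 7 against 4 and 36 against 35 could be paired in plate 3 CCl4 mice 1 and 2 and plate 5 CCl4 mouse 1. edgeR called 0 of 11053 genes (0%) in either direction, with 170 higher and 75 lower at an unadjusted p under 0.05, and DESeq2 called 37 higher and 13 lower. The log2 fold change was 3.06 for Cxcl5, 1.95 for Hp, 1.14 for Il33, -2.49 for Eln and -2.63 for Pi16, each in the same direction as over all FB-like wells, while that of Col6a3 was -0.36 and that of Matn2 was 0.48. For Steap4 it was 0.15 and for C3 0.28, against 1.19 and 1.03 over all FB-like wells. The median log2 fold change of the NF-kB list was 0.24 here against 1.08, that of the CXC chemokines 2.15 against 2.39 and that of the acute-phase genes 0.96 against 1.03, beside a median over all genes of 0.22 here and -0.03 over FB-like wells. Of the 56 wells of cluster 8 outside the rule, 26 had Saa3 without enough Lcn2 and 5 had Lcn2 without enough Saa3.

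The same pair of genes was looked up in 5 droplet (10X) libraries of GFP+ cells, each pooled from 3 mice, with 1 library per condition and digestion, so nothing was tested. Cells with at least 1 molecule (UMI) of both genes numbered 0 of 6850 in uninjured HSC-digestion liver, 8 of 7310 (0.109%) at 72 h after CCl4 and 106 of 5454 (1.94%, exact 95% interval 1.59 to 2.35%) after 6 weeks of CCl4. Of these 106 cells 86 had only 1 to 3 Saa3 UMIs and 20 had 10 or more, so most stood at the lowest counts. With the PF digestion, which the plates also had, they numbered 1 of 5737 in uninjured liver and 3 of 5648 (0.0531%, 0.0110 to 0.155%) after 6 weeks of CCl4. The plates had 110 of 507 wells (21.7%) in CCl4 mice under another rule and depth, so the values stand side by side only. Cells with 10 or more Saa3 UMIs, whatever their Lcn2, also numbered only 3 of 5648 in the 6-week PF library. That library, of the same injury and digestion, thus did not show the share seen on the plates, and the source of the gap was not tested. In VSMC cells of the 6-week PF library 0 of 2751 had both (exact 95% interval up to 0.134%), against 2 of 2682 FB cells (0.00903 to 0.269%). These intervals overlap, so the 2 types are not told apart here. A Saa3 UMI was found in 19 of the VSMC cells and 42 of the FB cells. The remaining cell with both genes was 1 of 3 cells classed as mesothelial. It had 6 mesothelial markers and 274 Saa3 UMIs, the only cell of that library with 100 or more. Median depths of the VSMC and FB cells were 4430 and 6452 UMIs. At 72 h, the 8 cells with both genes had a median of 23.5 Saa3 UMIs. By marker counts 4 of these 8 were classed as FB, 3 as HSC and 1 as neither. That library held 75 cells classed as FB and 7140 as HSC.

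In the 6-week HSC-digestion library, 33.6% of cells had a Saa3 UMI, but 1799 of these 1834 cells had only 1 to 3. Just 18 cells had 100 or more, with a median of 1003.5 Saa3 UMIs, and 17 of them also had Lcn2. These 18 cells had a median of 19154.5 UMIs against 9893 in the library, and medians of 5 FB and 6 HSC markers. By marker counts 11 of the 18 were classed as HSC, 4 as FB and 3 as neither, and of the 106 cells with both genes 98 were classed as HSC, 3 as FB and 5 as neither. The library itself held 5420 cells classed as HSC and 11 as FB, of which 1818 and 5 had a Saa3 UMI. Of the 21 cells with 10 or more Saa3 UMIs, 12 were classed as HSC, 4 as FB and 5 as neither. Since a Saa3 UMI was found in so many cells at the lowest counts, a single UMI is not read as expression here. No doublet caller was run, so cells that share a droplet were not tested for. Thinned to 2000 UMIs per cell, 23 of 5454 cells (0.422%) kept both genes. Between 33 and 74 cell barcodes were shared by each pair of libraries.

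**Figure D5:**
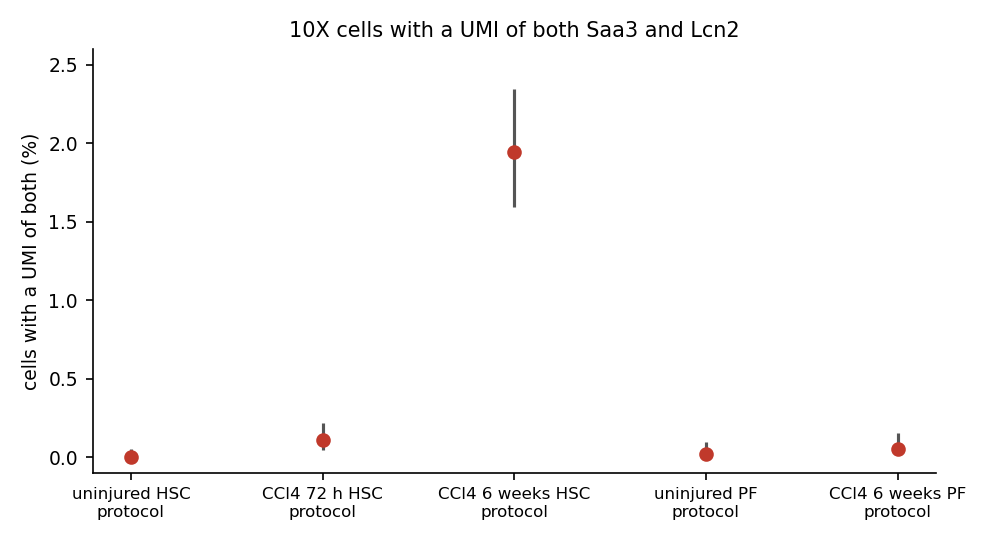
Share of 10X cells (percent, vertical axis) with at least 1 UMI of both Saa3 and Lcn2 in each of the 5 libraries (horizontal axis), with exact 95% intervals that cover counting error only. The 6-week CCl4 library from the HSC digestion stands at 1.94%, carried mostly by cells with 1 to 3 Saa3 UMIs, and the other 4 between 0 and 0.109%.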

How the data were processed

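Per the labels and the methods of the study, the authors aligned Smart-seq2 reads with STAR to mm10 with eGFP and spike-in sequences added, counted them per RefSeq gene with rpkmforgenes and deposited raw read counts. The 10X counts were deposited as UMI counts from Cell Ranger 2.1.0. Rows of 492 duplicated gene names were summed. Whole wells gave 52015 to 656972 gene reads. The wells and gene lists were chosen with earlier results of these data known. Wells were clustered by Leiden (leidenalg 0.10.2; 2000 variable genes, 10 components, 30 neighbours, resolution 0.8), without the inflammatory lists. The scoring that names clusters was changed after the clusters had been seen. Reads summed per portion and arm (at least 5 wells each, 4 within cluster 8) were tested with edgeR 4.0.16 and, as an alternative, DESeq2 1.42.0, with Benjamini-Hochberg adjustment at 0.05. The portion block rests on shared mouse and plate; deviations of paired sums correlated at 0.018 to 0.068. Shares and medians were tested by exact permutation over portions (scipy 1.17.1). Scripts were tested on simulated data. Named genes were the 10 largest called changes each way with at least 20 RPM in the higher arm and 1 direction in every portion, and the most abundant members of fixed lists. Il33, Cxcl13 and some further list members were named after their values were seen. Alternatives changed thresholds, filters, size factors, classes, depth and portions. A test of CCl4 against uninjured Saa3+Lcn2+ wells was not possible, since no uninjured well met the rule.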

Additional observations from a re-analysis of the deposited data

Results flagged for a closer look

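Among FB-like wells, the share with both Saa3 and Lcn2 was 0.820% in the plate 4 portion of BDL mouse 1 (1 of 122 wells) and 0 in the other 4 BDL portions. It is listed because the gap to the other portions spans the whole range of the group, which any value above 0 would do beside 4 zeros, so the listing carries no weight as a test. The value rests on a single well, with 298 Saa3 and 423 Lcn2 reads.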

How the results depend on the processing

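The share of Saa3+Lcn2+ wells after CCl4 minus uninjured stayed positive under every alternative, with leave-one-out differences of 18.8 to 27.5 percentage points, and CCl4 minus BDL ranged from 18.4 to 27.1. Among FB-like wells only, these differences were 39.9 and 39.8, and without wells of other cell types 17.2 and 17.2. With the plate as replicate block the difference of 22.0 had an exact permutation p of 0.111, the smallest possible. With every fixed marker scored, the FB-like share difference was -17.0 and the unnamed one 64.7 percentage points. The unnamed difference was 6.94 with classes by marker counts. At clustering resolution 0.4 the FB-like difference was 71.4 percentage points, against 55.9 in the main run. The mesothelial-like difference was 0 there, against 8.48. The difference in reads per well, -5155, was 6338 over all wells and -20991 to 9052 with a portion left out, 867 among them. Against 0 higher and 22 lower genes, DESeq2 gave 384 and 653, no filter on low counts 12 and 75, no replicate block 21 and 78, all wells 423 and 687, thinned wells 49 and 141, and classes by marker counts 31 and 109. Wells with at most 1 mesothelial marker gave 1 lower gene, cluster 8 gave 0 by edgeR and 37 and 13 by DESeq2, and leaving out a portion gave 0 to 12 higher and 0 to 49 lower. The direction of some genes turned. Over all wells the log2 fold change was 0.72 for Cd34, 0.22 for Cebpd, 1.19 for Dcn, 0.18 for Gpx3 and 0.32 for Lum. Within cluster 8 it was 0.014 for Cd34, 0.46 for Cebpd, -0.34 for Clu, 0.48 for Matn2 and -0.054 for Wt1, and by DESeq2 0.40 for Cebpd, -0.40 for Clu, 0.48 for Matn2 and -0.11 for Wt1. The causes were not tested. Cluster 8, marker-limited and every-marker alternatives were chosen after seeing the data.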
